A study of Homo sapiens with 12 samples.

Results

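The comparison described here set SUM149 cells that had lost the aryl hydrocarbon receptor (AHR) against MDA-MB-231 cells that had lost it, in order to ask how far the 2 breast cancer lines still differed without the receptor, and in which genes that difference was wider or narrower than between their controls. The members were the 6 arrays titled AHR KO, of 12 arrays in all, and the other 6, titled control, gave the difference between the lines with the receptor in place. SUM149 AHR KO, MDA-MB-231 AHR KO, SUM149 control and MDA-MB-231 control cells were each represented by 3 arrays, given by the submitters as biological replicates. Both knockout lines were made with a lentivirus carrying Cas9 and a guide RNA against the first exon of AHR, followed by puromycin selection, and the controls received Cas9 without a guide. The labels describe serial dilution into wells after transduction, but neither they nor the paper's methods say how many clones each line contributed. Knockout and control cells of a line were thus transduced and selected apart, and loss of AHR cannot be told apart from that derivation. The 2 lines were also grown in different media, since SUM149 was kept in F-12K with low serum, hydrocortisone and insulin and MDA-MB-231 in DMEM with more serum, so that the line, its medium and its derivation cannot be told apart in any difference between them. SUM149 comes from an inflammatory breast cancer and MDA-MB-231 is a widely used line of mesenchymal character, and both are triple negative, that is, they lack the hormone receptors and HER2 amplification used to classify breast tumors.

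AHR is a ligand-activated transcription factor of the bHLH-PAS family. It waits in the cytoplasm with chaperones, moves into the nucleus when it binds a ligand such as a tryptophan metabolite or a polycyclic aromatic hydrocarbon, pairs there with ARNT and binds DNA at sites with the core GCGTG. In breast cancer cells it has been studied for its links to migration, to invasion and to the epithelial-to-mesenchymal transition, in which cells give up E-cadherin junctions and take on vimentin filaments under transcription factors such as ZEB1. The guide targets are shown because they define the knockout on which every comparison below rests. Both were designed against AHR, which lies on chromosome 7 at 17298652 to 17346147 in GRCh38.p14.
AHR guide 1: cctacgccagtcgcaagcgg
AHR guide 2: ccgagcgcgtcctcatcgcg

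Values were log2 levels made with RMA by the authors, 1 for each of 31720 Ensembl gene IDs, and a level is a signal of that gene's probes, not a number of transcripts. Arrays of a group correlated at 0.9939 to 0.9952 over genes, replicate SDs had medians over genes of 0.108 to 0.115 in the 4 groups, and array medians lay between 3.62 and 3.70. The deposited table pairs no ID with a gene name and the reference table matched 0 IDs. The 7 genes named here come from ID pairs supplied with the comparison. The transcript of AHR itself was therefore not analysed here as a check of the labels. The paper reports that the knockout was checked by DNA sequencing and by immunoblot for AHR protein in both lines. In what follows, the gap of a gene is its mean log2 level in SUM149 minus that in MDA-MB-231, measured once among AHR KO arrays and once among control arrays, and the difference of the 2 gaps is the KO gap minus the control gap. Calls were made in limma where the adjusted p did not exceed 0.05, with Benjamini-Hochberg adjustment over all genes and 1 estimate of the spread from all 4 groups (8 residual degrees of freedom). What the biological replicates consisted of, such as separate cultures, is not described, so the p-values reflect a spread between arrays that may in part be technical, and by exact permutation 3 arrays against 3 cannot give a two-sided p below 0.1.

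Among AHR KO cells, 5788 genes (18.2% of those tested) were higher and 6034 (19.0%) were lower in SUM149 than in MDA-MB-231, together 37.3% of all genes. Which direction held more genes depended on the setting, since centring each array on its median gave 6620 higher and 5067 lower, an adjusted p of 0.01 or less gave 4641 and 4457, and a fold of at least 1.5 gave 3022 and 2730. The arrays of the lines did not overlap in 46.7% of genes. The gaps were mostly modest, with a median of 0.61 among the higher genes and -0.54 among the lower ones, and with 1463 genes higher and 1277 lower by at least 2-fold. A smaller number stood far apart, 91 higher and 53 lower by at least 16-fold, and the extremes were 9.07 and -7.76. Among control cells the gap was called in 35.4% of genes, with 87 higher and 54 lower by at least 16-fold. Over all genes the gap had an SD of 0.717 among AHR KO cells and 0.71 among control cells, and the 2 gaps correlated across genes at 0.86, a description across genes, which are not independent replicates. Calls followed the signal of the gene, since 70.6% of the 10573 genes of highest mean level and 9.87% of the 10574 of lowest mean level were called in the KO gap. Both gaps were called in the same direction in 7989 genes, 67.6% of those called among AHR KO cells and 71.1% of those called among controls, of which 4033 were higher and 3956 lower in SUM149. In 6080 of the 7989 the 2 gaps did not pass the test for a difference, which does not show that they were equal.

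The gap itself differed between AHR KO and control cells in 4173 genes (13.2%), with a positive difference in 2122 (6.69%) and a negative one in 2051 (6.47%). The median size of the difference among them was 0.58, and it reached 2-fold in 656 and 4-fold in 87. By the 3 contrasts of the fit, the gap was wider among AHR KO cells in 1936 of these genes, narrower in 1844 and turned round, that is, called with opposite signs, in 363, while 30 had neither gap called. A gene with only the KO gap or only the control gap called was classed as wider or narrower whatever the sign of the other gap. Some wider and narrower genes therefore also had gaps of opposite sign. The wider genes had a median gap size of 0.85 among AHR KO cells and 0.25 among controls, and in 998 of them the control gap was not called. The narrower genes had median sizes of 0.27 among AHR KO cells and 0.83 among controls, and in 873 of them the KO gap was not called. Wider gaps were about as often above 0 in SUM149 (1015) as below (921), and of the narrower ones 945 had been higher and 899 lower in SUM149 controls. Among the wider genes, 109 had a KO gap of at least 2-fold and no called control gap. Among the narrower genes, 99 had a control gap of at least 2-fold and no called KO gap. Of the genes turned round, 5 had gaps of at least 2-fold in both settings.

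**Figure D1:**
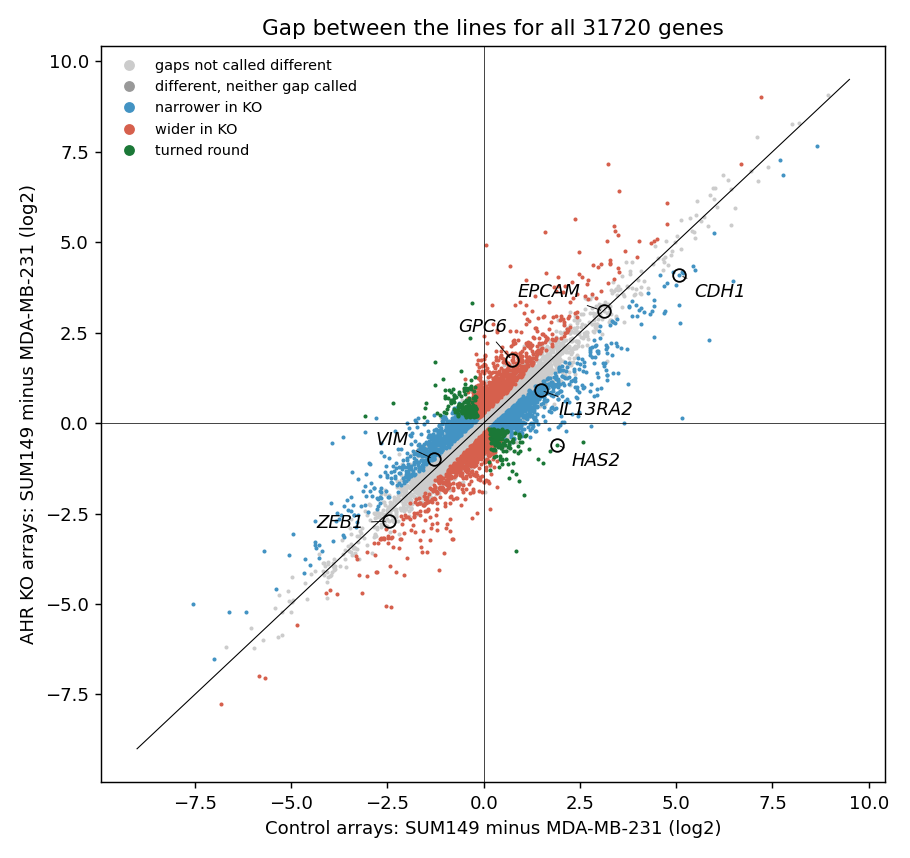
Gap between the lines (SUM149 minus MDA-MB-231, log2) of each of 31720 genes among AHR KO arrays (vertical axis) against that among control arrays (horizontal axis), where each point is a gene, colours give the class of its difference, the diagonal marks equal gaps and the circles are the 7 named genes. Most points lie along the diagonal, the 363 genes turned round lie in the upper left and lower right parts, and HAS2 is the named gene among them.

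By construction the difference of the gaps is also the knockout effect (AHR KO minus control) in SUM149 minus that in MDA-MB-231, so each class can be read by the line that moved. The knockout effect was called in 16.8% of all genes in SUM149 and in 3.92% in MDA-MB-231. Of the 1936 wider genes, 1386 were called in SUM149 and not in MDA-MB-231, 192 the other way round, 46 in both in the same direction, 98 in both in opposite directions and 214 in neither. Of the 1844 narrower genes these numbers were 1239, 222, 30, 109 and 244, and of the 363 of opposite sign 241, 18, 8, 89 and 7. The effect in SUM149 was the larger in 80.7% of the wider, 74.7% of the narrower and 85.7% of the genes of opposite sign. In each class more genes were called in SUM149 than in MDA-MB-231, as was so among all genes (16.8% against 3.92%). The classes were selected by a contrast of the knockout effects, so these shares describe the selected genes. The share with the larger effect in SUM149 was not computed over all genes. The classes are therefore not shown to differ from all genes in this respect.

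**Figure D2:**
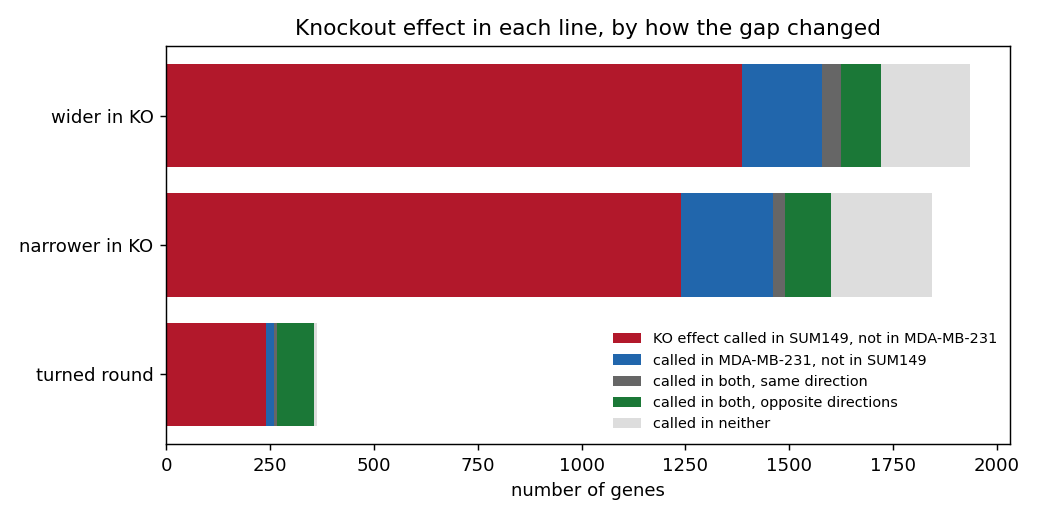
Number of genes (horizontal axis) with a wider, narrower or turned gap among AHR KO cells, divided by whether the knockout effect was called in SUM149, in MDA-MB-231, in both lines or in neither. In each bar the genes called in SUM149 and not in MDA-MB-231 form the largest piece, 1386, 1239 and 241 genes.

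The 7 named genes were CDH1 and EPCAM of epithelial cells, VIM and ZEB1 of mesenchymal cells, and HAS2, GPC6 and IL13RA2, which act at the cell surface, and since they were chosen with results of these data known their counts are a description. In the KO gap 7 of the 7 were called and did not overlap between the lines, 4 higher and 3 lower in SUM149, beside 37.3% of all genes called and 46.7% of all genes without overlap. The gap differed between AHR KO and control cells in 5 of the 7, beside 13.2%, and it was narrower in CDH1, VIM and IL13RA2, wider in GPC6 and of opposite sign in HAS2.

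**Figure D3:**
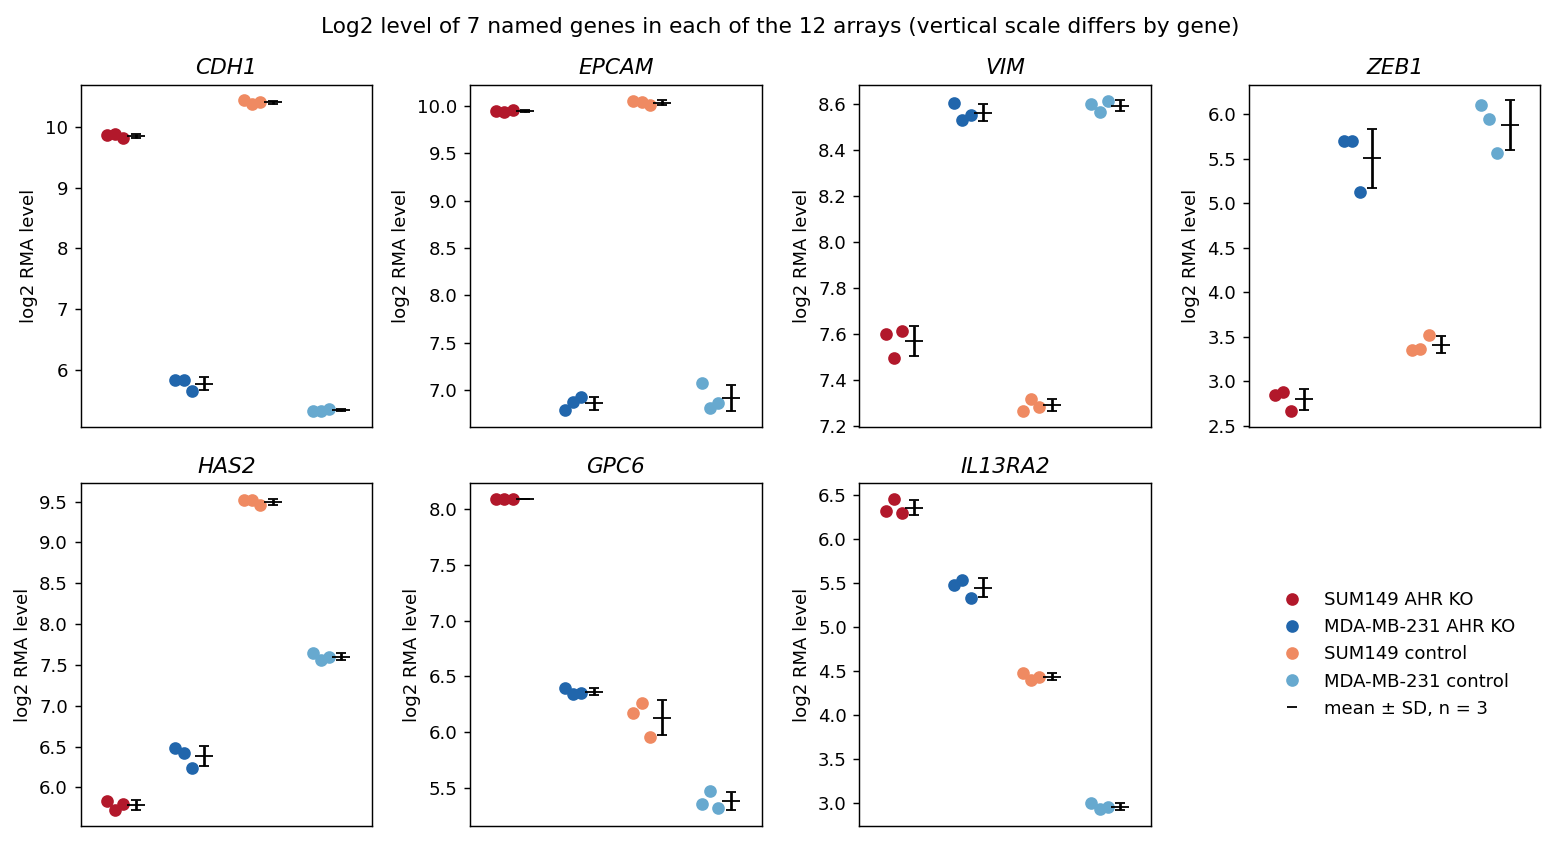
Log2 RMA level of the 7 named genes in each array, with the mean and SD of each group (n = 3) beside the points and a vertical scale of its own for each gene. CDH1, EPCAM, GPC6 and IL13RA2 were higher in SUM149 AHR KO than in MDA-MB-231 AHR KO cells, VIM, ZEB1 and HAS2 were lower, and no arrays of the 2 knockout lines overlap.

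CDH1 (ENSG00000039068; chromosome 16, 68737292 to 68835537 in GRCh38.p14) encodes E-cadherin, the adhesion molecule of epithelial adherens junctions. Its log2 level was 9.87, 9.88 and 9.82 in SUM149 AHR KO cells, against 5.83, 5.83 and 5.64 in MDA-MB-231 AHR KO cells. It was 10.44, 10.38 and 10.41 in SUM149 controls, against 5.32, 5.31 and 5.35 in MDA-MB-231 controls. In each line the knockout arrays stood clear of the control arrays, below them in SUM149 and above them in MDA-MB-231. The gap was 4.09 among AHR KO cells (standard error 0.064, 17.0-fold, adjusted p = 2.80e-12 from limma), the 137th largest of 31720, and 5.08 among controls, or 33.9-fold. The KO gap was therefore the smaller (difference -0.996, 95% interval -1.19 to -0.80, adjusted p = 3.66e-05 from limma). Both lines contributed, since the level fell by 0.55 in SUM149 (adjusted p = 0.000111 from limma) and rose by 0.44 in MDA-MB-231 (adjusted p = 0.00279).

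EPCAM (ENSG00000119888; chromosome 2, 47369311 to 47387020) encodes an adhesion molecule of the epithelial cell surface. Its level was 9.95, 9.94 and 9.96 in SUM149 AHR KO cells, against 6.79, 6.87 and 6.92 in MDA-MB-231 AHR KO cells. Among controls it was 10.05, 10.05 and 10.01 in SUM149, against 7.07, 6.81 and 6.86 in MDA-MB-231. The lines were far apart in both settings, with a KO gap of 3.09 (8.50-fold, adjusted p = 5.03e-11 from limma) and a control gap of 3.13. The difference of the gaps was -0.04, with a 95% interval of -0.27 to 0.19 and an adjusted p of 0.874 from limma. The knockout effect was -0.09 in SUM149 and -0.05 in MDA-MB-231, and neither passed the test (adjusted p = 0.505 and 0.813 from limma). The SUM149 knockout arrays lay below the SUM149 controls without overlap, while knockout and control arrays of MDA-MB-231 overlapped.

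VIM (ENSG00000026025; chromosome 10, 17228241 to 17237593) encodes vimentin, the intermediate filament protein of mesenchymal cells. Its level was 7.60, 7.50 and 7.61 in SUM149 AHR KO cells, against 8.60, 8.53 and 8.55 in MDA-MB-231 AHR KO cells. Among controls it was 7.27, 7.32 and 7.29 in SUM149, against 8.60, 8.57 and 8.61 in MDA-MB-231. Every MDA-MB-231 array was above every SUM149 array, and within SUM149 the knockout arrays were above the controls. The gap was -0.99 among AHR KO cells (1.99-fold lower in SUM149, adjusted p = 6.23e-08 from limma) and -1.30 among controls, a difference of 0.31 (95% interval 0.13 to 0.49, adjusted p = 0.0254 from limma). The level rose by 0.28 in SUM149 (adjusted p = 0.00488 from limma), while the effect in MDA-MB-231 was -0.03 (adjusted p = 0.864). The narrowing of VIM was close to the threshold, as it was not called in 8 of the 12 fits that each left out 1 array (adjusted p = 0.0519 to 0.0622 from limma): those without replicate 1 or 3 of SUM149 AHR KO, of SUM149 control or of MDA-MB-231 control, or without replicate 2 or 3 of MDA-MB-231 AHR KO.

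ZEB1 (ENSG00000148516; chromosome 10, 31318417 to 31529804) encodes a zinc-finger repressor of epithelial genes, CDH1 among them. Its level was 2.85, 2.88 and 2.66 in SUM149 AHR KO cells, against 5.70, 5.70 and 5.12 in MDA-MB-231 AHR KO cells. Among controls it was 3.36, 3.37 and 3.52 in SUM149, against 6.11, 5.95 and 5.56 in MDA-MB-231. The lines stayed well apart, with a KO gap of -2.71 (6.53-fold lower in SUM149, adjusted p = 1.23e-07 from limma) and a control gap of -2.46. The MDA-MB-231 arrays were more spread than for any other of the 7 genes, with an SD of 0.33 among AHR KO and 0.28 among control arrays, and the difference of the gaps, -0.25, had a 95% interval of -0.77 to 0.27 (adjusted p = 0.595 from limma). The level fell by 0.62 in SUM149 (adjusted p = 0.0257 from limma), and the effect in MDA-MB-231 was -0.37 (adjusted p = 0.311). All 6 SUM149 values lay below the lowest array median of 3.62, and no level was compared with background probes here.

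**Figure D4:**
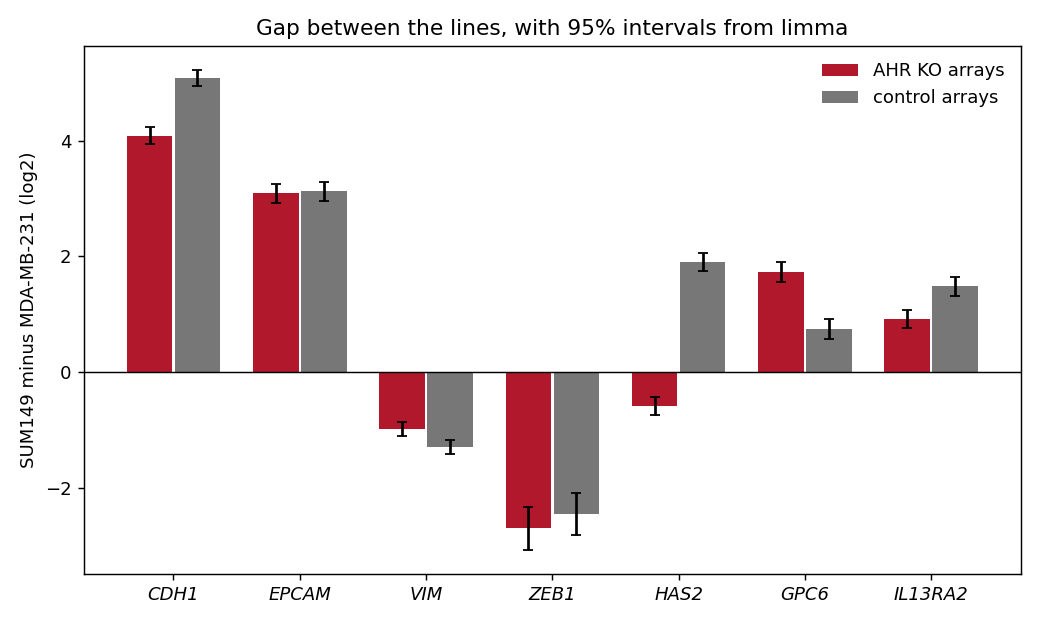
Gap between the lines (SUM149 minus MDA-MB-231, log2) of the 7 named genes among AHR KO arrays and among control arrays, where bars are the differences of group means (n = 3 arrays each) and error bars the 95% intervals from limma. The bars are of nearly equal height for EPCAM (3.09 among AHR KO and 3.13 among control arrays), and they lie on opposite sides of 0 for HAS2 (-0.60 and 1.90).

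HAS2 (ENSG00000170961; chromosome 8, 121612116 to 121641440) encodes a hyaluronan synthase, an enzyme of the plasma membrane that spins out the matrix polysaccharide hyaluronan. Its level was 5.83, 5.72 and 5.80 in SUM149 AHR KO cells, against 6.48, 6.43 and 6.24 in MDA-MB-231 AHR KO cells. Among controls it was 9.52, 9.52 and 9.46 in SUM149, against 7.64, 7.55 and 7.60 in MDA-MB-231. The order of the lines was therefore opposite in the 2 settings, and in neither did the arrays overlap. The gap was -0.60 among AHR KO cells (1.51-fold lower in SUM149, adjusted p = 3.20e-05 from limma) and 1.90 among controls (3.73-fold higher in SUM149, adjusted p = 1.84e-09). Their difference of -2.50 (95% interval -2.72 to -2.28, adjusted p = 1.45e-07 from limma) was the 37th largest in size of all genes. The level fell by 3.71 in SUM149 (13.1-fold, adjusted p = 4.40e-10 from limma) and fell by 1.22 in MDA-MB-231 (2.33-fold, adjusted p = 4.10e-06).

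GPC6 (ENSG00000183098; chromosome 13, 93216529 to 94408020) encodes glypican-6, a heparan sulfate proteoglycan tethered to the cell surface. Its level was 8.09 in each of the 3 SUM149 AHR KO arrays, against 6.40, 6.34 and 6.35 in MDA-MB-231 AHR KO cells. Among controls it was 6.17, 6.26 and 5.96 in SUM149, against 5.36, 5.47 and 5.31 in MDA-MB-231. Knockout arrays were above the controls of their own line without overlap, and SUM149 above MDA-MB-231 in both settings. The gap was 1.73 among AHR KO cells (3.32-fold, adjusted p = 9.39e-09 from limma) and 0.75 among controls (1.68-fold, adjusted p = 1.18e-05), and the difference of 0.98 had a 95% interval of 0.74 to 1.23 (adjusted p = 0.000188 from limma). The level rose by 1.96 in SUM149 (adjusted p = 4.88e-08 from limma) and by 0.98 in MDA-MB-231 (adjusted p = 4.45e-05). The SD of 0.00032 among the SUM149 AHR KO arrays was far below that of the other groups, at 0.030 to 0.155, and the test used the spread of all 4 groups.

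IL13RA2 (ENSG00000123496; chromosome X, 115003982 to 115017616) encodes a chain of the interleukin-13 receptor that binds the cytokine with high affinity and has a short cytoplasmic tail. Its level was 6.33, 6.46 and 6.30 in SUM149 AHR KO cells, against 5.48, 5.53 and 5.33 in MDA-MB-231 AHR KO cells. Among controls it was 4.49, 4.40 and 4.43 in SUM149, against 3.00, 2.93 and 2.95 in MDA-MB-231. The level was higher in SUM149 in both settings and higher on knockout in both lines. The gap was 0.91 among AHR KO cells (1.88-fold, adjusted p = 9.12e-07 from limma) and 1.48 among controls (2.79-fold, adjusted p = 1.54e-08), a difference of -0.57 (95% interval -0.79 to -0.34, adjusted p = 0.00349 from limma). The rise was 1.92 in SUM149 (adjusted p = 2.65e-08 from limma) and 2.49 in MDA-MB-231 (adjusted p = 2.30e-08), the 7th largest knockout effect of that line. The MDA-MB-231 control values, on which the control gap rests, lay below every array median.

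Of the named genes the table of RefSeq start sites (GRCh38.p14) held 3, VIM and GPC6 with 1 start each and ZEB1 with 7. The GPC6 start lies inside the span given for the gene above, downstream of its first base, so that its window is not sequence before the gene. The same holds for every ZEB1 window after the first, those with AHR-ARNT cores among them. The 250 bases before a start were searched on both strands for the AHR-ARNT core GCGTG, which 32.2% of all 35116 such windows held, and for the E-box CAGGTG, the sequence bound by ZEB1 itself, which 17.5% held. No window of the named genes held both. The first ZEB1 windows are shown because ZEB1 was the named gene with matches, in capitals, and the windows of VIM and GPC6 because their gaps were narrower and wider among AHR KO cells. The first ZEB1 window held 1 E-box 57 bases before the start, and the second held 3 AHR-ARNT cores, 217, 112 and 104 bases before it. Of the other ZEB1 windows, the third held 2 E-boxes, 242 and 85 bases before its start, the fifth held 1 AHR-ARNT core 189 bases before it, and the remaining 3 held neither. Those of VIM and GPC6 held neither word, which says nothing of binding elsewhere. A match is a description of the letters and not of a bound site.
ZEB1 window 1 (chr10:31318167-31318416, plus strand): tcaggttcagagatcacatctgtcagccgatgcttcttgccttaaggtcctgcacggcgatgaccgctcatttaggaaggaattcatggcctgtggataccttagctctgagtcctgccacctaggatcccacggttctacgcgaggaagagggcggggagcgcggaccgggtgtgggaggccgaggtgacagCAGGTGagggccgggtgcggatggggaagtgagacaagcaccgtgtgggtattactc
ZEB1 window 2 (chr10:31318568-31318817, plus strand): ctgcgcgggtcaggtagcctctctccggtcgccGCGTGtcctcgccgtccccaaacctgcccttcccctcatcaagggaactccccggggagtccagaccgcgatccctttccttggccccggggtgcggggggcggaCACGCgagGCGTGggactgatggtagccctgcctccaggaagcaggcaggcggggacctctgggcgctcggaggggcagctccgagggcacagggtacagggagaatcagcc
VIM window (chr10:17227991-17228240, plus strand): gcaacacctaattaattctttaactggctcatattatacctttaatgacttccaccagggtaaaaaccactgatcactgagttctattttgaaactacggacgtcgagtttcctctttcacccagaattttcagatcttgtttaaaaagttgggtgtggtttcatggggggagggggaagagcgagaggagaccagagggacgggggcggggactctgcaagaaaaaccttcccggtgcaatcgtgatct
GPC6 window (chr13:93226557-93226806, plus strand): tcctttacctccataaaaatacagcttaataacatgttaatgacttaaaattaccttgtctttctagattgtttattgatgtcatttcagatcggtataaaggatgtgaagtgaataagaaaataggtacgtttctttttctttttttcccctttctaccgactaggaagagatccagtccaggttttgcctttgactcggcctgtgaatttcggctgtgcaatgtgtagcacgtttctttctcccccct

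The largest differences between the gaps lay among IDs that the sources used here do not name, and the 2 largest in each direction, chosen after their values were seen, are given. ENSG00000181617 had log2 levels of 6.08, 6.03 and 6.36 in SUM149 AHR KO cells, against 1.26, 1.10 and 1.33 in MDA-MB-231 AHR KO cells, and 1.46, 1.35 and 1.13 in SUM149 controls, against 1.21, 1.16 and 1.38 in MDA-MB-231 controls. Its gap was 4.93 among AHR KO cells and 0.06 among controls, so that the lines were apart among AHR KO arrays and overlapped among controls (difference 4.86, adjusted p = 4.37e-08 from limma). ENSG00000123610 stood at 9.72 ± 0.04 (SD, n = 3) in SUM149 AHR KO cells against 2.56 ± 0.19 in MDA-MB-231 AHR KO cells, and at 5.97 ± 0.21 in SUM149 controls against 2.73 ± 0.10 in MDA-MB-231 controls. The gap was 7.16 among AHR KO cells and 3.24 among controls (difference 3.92, adjusted p = 1.59e-07 from limma).

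The opposite course was seen for ENSG00000184254, with levels of 4.61, 4.24 and 4.03 in SUM149 AHR KO cells, against 3.95, 4.17 and 4.33 in MDA-MB-231 AHR KO cells. In controls it was 9.64, 9.63 and 9.66 in SUM149, against 4.77, 4.51 and 4.22 in MDA-MB-231. The knockout arrays of the lines overlapped, where the control arrays were 35.3-fold apart. Its gap of 0.15 among AHR KO cells (adjusted p = 0.539 from limma) and 5.14 among controls made the largest difference of all genes, at -4.99 (adjusted p = 2.89e-07). In ENSG00000261780 it was MDA-MB-231 that moved, since its level was 2.67 ± 0.38 (SD, n = 3) in SUM149 AHR KO cells against 6.20 ± 0.24 in MDA-MB-231 AHR KO cells, and 2.64 ± 0.17 in SUM149 controls against 1.79 ± 0.32 in MDA-MB-231 controls. The gap was -3.53 among AHR KO cells and 0.85 among controls (difference -4.38, adjusted p = 4.35e-06 from limma). The lower levels of ENSG00000181617, ENSG00000123610 and ENSG00000261780, up to 3.06, lay below the median of every array. Those of ENSG00000184254, from 3.95 to 4.77, lay above the median of every array. No level was compared with background here.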

How the data were processed

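RNA of SUM149 and MDA-MB-231 cells with AHR KO or Cas9 control was measured on 12 Affymetrix arrays, 3 in each of 4 groups taken from the titles. The authors' RMA values were deposited on the log2 scale (background correction, quantile normalization and probe summary; affy 1.48.0 in R 3.2.3 per the submitters' processing notes), 1 row for each of 31720 Ensembl IDs. The sources used here do not give the probe set definition or the genome build. Precision is limited by the number of arrays. RMA makes the arrays' distributions near-equal, which hides any change shared by most genes.

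These values were fitted, without further normalization, in limma 3.58.1 under R 4.3.3 (4 group means, eBayes, Benjamini-Hochberg over all genes, adjusted p of 0.05 or less), with contrasts for the gap among AHR KO arrays, among control arrays and their difference. A gap was wider if the difference and the KO gap were called and the control gap was smaller with the same sign or not called, narrower in the mirror case, and of opposite sign if both were called. Only the call of the difference of the gaps was tried on simulated data, with shifts added to SUM149 AHR KO values. Python 3.11.15, pandas 2.3.3 and matplotlib 3.10.9 were used for sequences and plots.

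The members, the 7 named genes, the gene lists and the tests were chosen with earlier results of these data known. The rule named these 7 genes, list members and the genes with the largest gaps and differences. Since 0 IDs matched the reference table (GRCh38.p14), the lists were not analysed here, markers of other cell types included, and the 4 further IDs are the largest differences. Alternatives were 20 settings, 12 of which each left out 1 array. Paired analysis by replicate number was an alternative only, since arrays that share a number had deviations from their group means correlated at -0.017 to 0.035 in 18 pairs, 0 of them above 0.1.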

Additional observations from a re-analysis of the deposited data

Results flagged for a closer look

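The difference between the lines was not the same with and without AHR in 4173 genes by limma's test of the difference of the gaps. Among the named genes it was tested as different in CDH1 (-0.996), VIM (0.31), HAS2 (-2.50), GPC6 (0.98) and IL13RA2 (-0.57), each given as KO gap minus control gap on the log2 scale. Of the IDs without a name, the largest differences were those of ENSG00000181617 (4.86), ENSG00000123610 (3.92), ENSG00000184254 (-4.99) and ENSG00000261780 (-4.38). Loss of AHR and the separate derivation of knockout and control cells cannot be told apart in these differences. Groups of 3 arrays are too small for a test of single outlying arrays.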

How the results depend on the processing

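Of 156 counts recomputed, 144 stayed within 1.5 times of the value reported. A fold of at least 1.5 left 3022 genes higher and 2730 lower in the KO gap, 2997 higher and 2756 lower in the control gap, and 2052 with different gaps (860 wider, 825 narrower, 43 of opposite sign). An adjusted p of 0.01 or less left 2172 with different gaps (1005 wider, 959 narrower, 184 of opposite sign). In the KO gap that stricter threshold left 4641 higher and 4457 lower. Both settings call fewer genes by construction. Centring the arrays on their medians gave 6620 higher and 5067 lower genes in the KO gap. The direction with more genes turned under these 3 settings. Without 1 array, 3372 to 3664 genes had different gaps. With the replicate number as a block this count was 3717, with 6 residual degrees of freedom, and no call changed for a named gene in the KO gap or the difference of the gaps, the contrasts run with the block. Of the 238 values recomputed for the named genes, the 8 lost calls were those of VIM, and the sign turned in 1, the EPCAM difference without MDA-MB-231 control replicate 2 (0.014, adjusted p = 0.961 from limma), over a range of -0.12 to 0.014 without 1 array. Dim genes limit what can be called, as 2.04% of the 10574 dimmest and 29.3% of the 10573 brightest genes had different gaps.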
